A study of Rattus norvegicus with 20 samples.

Results

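The 3 array probes R017, RG351 and RG416 were followed in whole rat lung over a labelled course of neointimal vascular proliferation and pulmonary hypertension. They were chosen by their group means, which went up from NL through Day 14, Day 21, Day 28 and Day 35, with the T mean between NL and Day 35. They are 3 of the 1185 probes in the table, and 19 probes in all (1.6%) had means in this order. Among those 19 they had the largest differences between Day 35 and NL. The genes behind these identifiers are not named in the sources used here, so no gene function or sequence is given.

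Neointimal proliferation is the growth of cells, many of them of smooth muscle type, inside the inner layer of a vessel wall. In the small arteries of the lung it narrows the lumen, raises the pressure the right ventricle has to work against and so belongs to the severe forms of pulmonary hypertension. RNA of a whole lung pools vessels, airways, alveoli and blood cells, and a change in the number of cells of a type cannot be told apart from a change in RNA per cell.

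Total RNA was measured on 20 arrays. NL had 5 arrays (numbers 2 to 6), Day 14 had 2 (7 and 8), and Day 21 (9 to 11), Day 28 (12 to 14), Day 35 (15 to 17) and T (18 to 20) had 3 each. A single further array was titled Normal with Day 0. The labels expand neither NL nor T, give no day for them, and name no strain, age, agent or surgery, nor whether arrays came from separate animals. Any spread between arrays may therefore be technical.

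The deposited values look logarithmic, with a base that is not given, and each array is centred, so a value of 0 is that array's median probe. Differences are in these units and are not folds. The arrays were not scaled to one spread: the interquartile range of all probes was narrowest in NL arrays 5 and 6 (0.42) and widest in array 11 of Day 21 (1.75). Averaged within groups it was 0.92 (NL), 1.33 (Day 14), 1.02 (Day 21), 1.24 (Day 28), 1.16 (Day 35) and 1.22 (T). Because the group means chose the probes, differences between groups are given with their errors as a description, without a test. SEs come from one linear model over 6 groups (limma), in which groups share an estimate of the spread.

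R017 lay near the array median in NL and well above it at Day 35. In NL it read 0.35, 0.04, -0.14, 0.02 and -0.12 in arrays 2 to 6. At Day 14 it read 0.58 and 0.32, and at Day 21 it read 2.30, 0.51 and 0.44. All Day 21 arrays were above all NL arrays, but array 9 stood far above the other two. At Day 28 the values were 0.71, 1.32 and 1.76, at Day 35 they were 2.86, 2.76 and 1.52, and in T they were 0.84, 1.45 and 1.98. Every array of Day 28, Day 35 and T exceeded every NL array, while Day 35 array 17 lay below the highest arrays of Day 21, Day 28 and T. Of all 1185 probes, 1.94% had all Day 21 arrays above all NL arrays, and 1.69%, 4.56% and 3.04% had this for Day 28, Day 35 and T.

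The group means of R017 were 0.03 ± 0.20 for NL (SD, n = 5), 0.45 ± 0.18 for Day 14 (n = 2), 1.08 ± 1.05 for Day 21 (n = 3), 1.26 ± 0.53 for Day 28 (n = 3), 2.38 ± 0.75 for Day 35 (n = 3) and 1.42 ± 0.57 for T (n = 3). The array ranges of neighbours in this order overlapped at each of the 5 steps, including T to Day 35, where 8 of 9 pairs of arrays were higher at Day 35. The difference from NL was 0.42 for Day 14 (SE 0.47), 1.05 for Day 21 (SE 0.41), 1.23 for Day 28 (SE 0.41), 2.35 for Day 35 (SE 0.41) and 1.39 for T (SE 0.41). Day 28 thus stood at 52.5% of the Day 35 difference and T at 59.3%. The Day 21 level turned on 1 array: without array 9 the Day 21 difference was 0.445, beside 0.42 at Day 14.

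RG351 was already above the array median in NL. It read 1.61, 0.40, 0.48, 0.10 and 0.23 in NL arrays 2 to 6, so array 2 stood apart from the other NL arrays. It read 1.29 and 0.17 at Day 14 and 2.15, 1.13 and 1.25 at Day 21. NL array 5 was the one array below Day 14 array 8, and NL array 2 lay above Day 21 arrays 10 and 11. It read 1.73, 1.81 and 2.04 at Day 28, 2.67, 2.16 and 3.31 at Day 35, and 1.42, 2.09 and 2.72 in T. Every Day 28 and Day 35 array was above every NL array, and every Day 35 array was above every array of Day 14, Day 21 and Day 28. Such separation of Day 35 held for 14.9% of all probes against Day 14, 6.67% against Day 21 and 5.65% against Day 28.

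The means of RG351 were 0.56 ± 0.60 for NL (SD, n = 5), 0.73 ± 0.79 for Day 14 (n = 2), 1.51 ± 0.56 for Day 21 (n = 3), 1.86 ± 0.16 for Day 28 (n = 3), 2.71 ± 0.58 for Day 35 (n = 3) and 2.08 ± 0.65 for T (n = 3). The step from NL to Day 14 was small: the difference was 0.17 (SE 0.45), and 5 of 10 pairs of arrays were higher at Day 14. Later differences from NL were 0.95 for Day 21 (SE 0.39), 1.30 for Day 28 (SE 0.39), 2.15 for Day 35 (SE 0.39) and 1.51 for T (SE 0.39). T therefore stood at 70.4% of the Day 35 difference. Its arrays overlapped those of Day 28 and of Day 35, and 7 of 9 pairs were higher at Day 35 than in T.

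RG416 was a bright probe in all groups. Its NL arrays were the most scattered, at 4.36, 3.15, 2.86, 1.10 and 0.88 in arrays 2 to 6. NL arrays 5 and 6, which had the narrowest spread of all arrays, were the lowest, and NL array 2 lay above every Day 14 and Day 21 array. The probe read 3.87 and 3.27 at Day 14, and 4.06, 3.51 and 3.59 at Day 21. It read 4.34, 3.05 and 4.73 at Day 28, 6.09, 4.86 and 5.02 at Day 35, and 3.30, 4.02 and 4.25 in T. Of the groups, Day 35 alone had all its arrays above all NL arrays, and its arrays also lay above all arrays of every other group, which against T held for 3.63% of all probes.

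The means of RG416 were 2.47 ± 1.47 for NL (SD, n = 5), 3.57 ± 0.42 for Day 14 (n = 2), 3.72 ± 0.30 for Day 21 (n = 3), 4.04 ± 0.88 for Day 28 (n = 3), 5.32 ± 0.67 for Day 35 (n = 3) and 3.86 ± 0.50 for T (n = 3), which places T between Day 21 and Day 28. The differences from NL were 1.10 for Day 14 (SE 0.72), 1.25 for Day 21 (SE 0.63), 1.57 for Day 28 (SE 0.63), 2.85 for Day 35 (SE 0.63) and 1.39 for T (SE 0.63). From Day 14 to Day 28 the mean moved by less than the SD of the Day 28 arrays, while the step from Day 28 to Day 35 was 1.28. T stood at 48.6% of the Day 35 difference, and T minus Day 35 was -1.47.

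**Figure D1:**
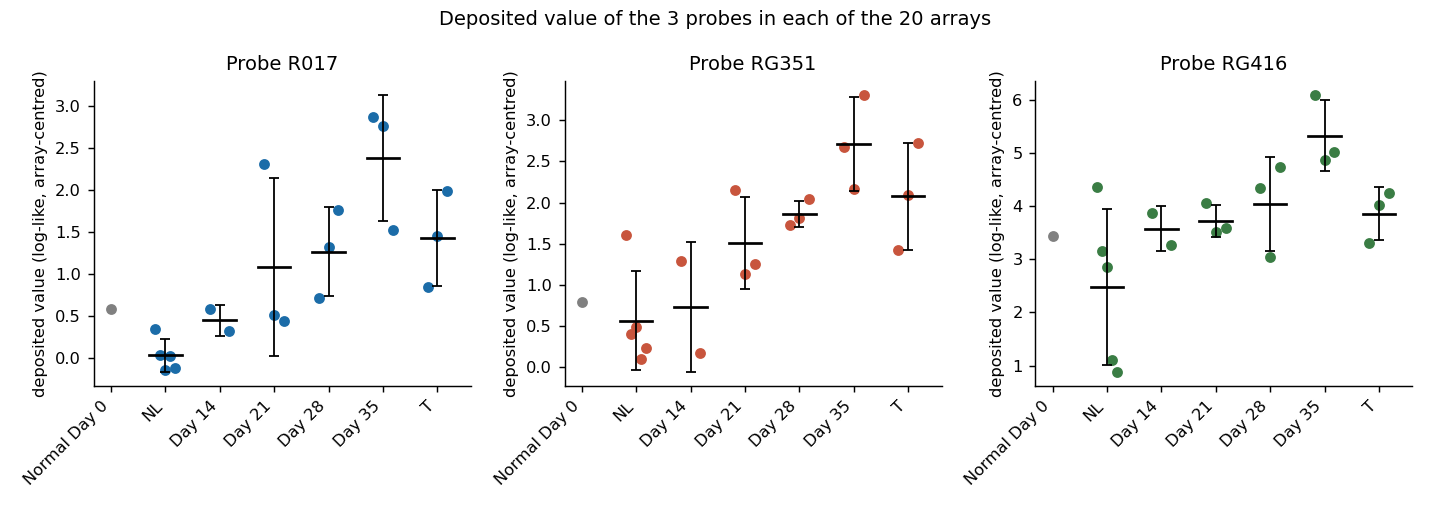
Deposited value (y axis, log-like units centred per array) of R017, RG351 and RG416 in each of the 20 arrays, by group; bars are the group mean and SD, and the grey point is the single Normal Day 0 array. Day 35 has the highest mean for each probe, NL arrays 5 and 6 are the lowest points for RG416, and Day 21 array 9 stands at 2.30 for R017.

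The earlier groups can be set against the Day 35 difference of each probe. At Day 14 R017 stood at 17.9% of it, RG351 at 7.72% and RG416 at 38.6%, and for R017 and RG351 the SE of that difference was wider than the difference itself. At Day 21 all 3 stood at 43.8% to 44.8%, and at Day 28 at 52.5% to 60.3%. These shares have no test, all are taken against the same NL and Day 35 arrays, and they changed with the arrays and the scaling. The Day 14 difference of RG416 was 0.11 with a common interquartile range and -0.185 without NL arrays 4 to 6, and the Day 21 difference of R017 was 0.445 without array 9.

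The percentile rank of a probe among the 1185 probes of its own array is unchanged when all values of that array are scaled alike. Arrays that differ in other ways, such as the shape of their distribution, can still differ in rank, so ranks are not free of array differences. By this measure R017 went from a mean of 48.0% in NL (range 32.2% to 61.7%) through 65.4% at Day 14, 78.9% at Day 21 and 83.5% at Day 28 to 92.6% at Day 35 (86.7% to 96.5%), with T at 85.8%. RG351 did not keep the order at its first step: its mean rank was 71.5% in NL and 70.0% at Day 14, then 88.0%, 90.5% and 94.8% at Day 21, Day 28 and Day 35, with T at 91.9%. RG416 had little room to move, from 94.8% in NL (91.0% to 97.7%) to 99.3% at Day 35 (99.2% to 99.5%), with T at 98.0%. For all 3 probes every Day 35 array ranked above every NL array, which held for 6.16% of all probes. It also held at Day 28 for all 3 (2.87% of all probes), in T for R017 and RG351 (3.46%) and at Day 21 for R017 (2.03%).

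**Figure D2:**
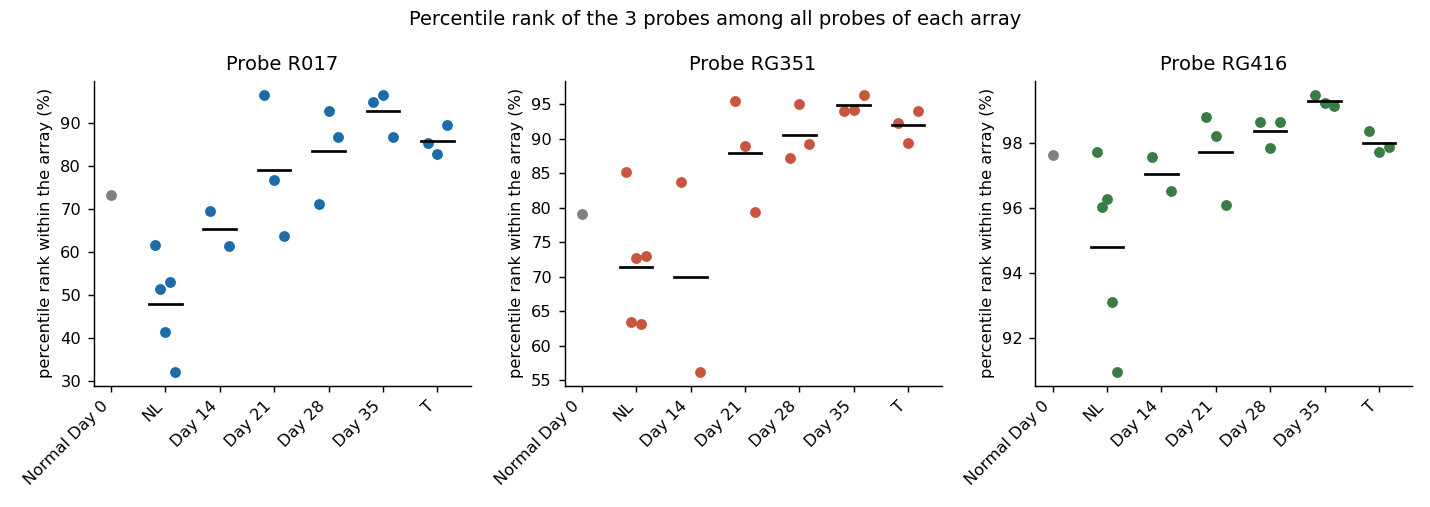
Percentile rank of the 3 probes among all probes of the same array (y axis, %), by group; points are arrays, lines are group means, and the grey point is the Normal Day 0 array. All Day 35 points lie above all NL points in each panel, and the RG351 mean does not go up from NL (71.5%) to Day 14 (70.0%).

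The other 16 probes with means in the same order had smaller differences between Day 35 and NL, from 0.28 for R335 to 1.76 for RG534. The values on either side of the 3 were 2.15 for RG351 and 1.76 for RG534. The opposite order, a stepwise fall with T between, occurred in 10 probes (0.844%). Several steps within the 3 profiles were small: the smallest was 0.18 for R017 (Day 21 to Day 28), 0.17 for RG351 (NL to Day 14) and 0.15 for RG416 (Day 14 to Day 21). Each was below the SD of at least 1 of the groups it joined.

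**Figure D3:**
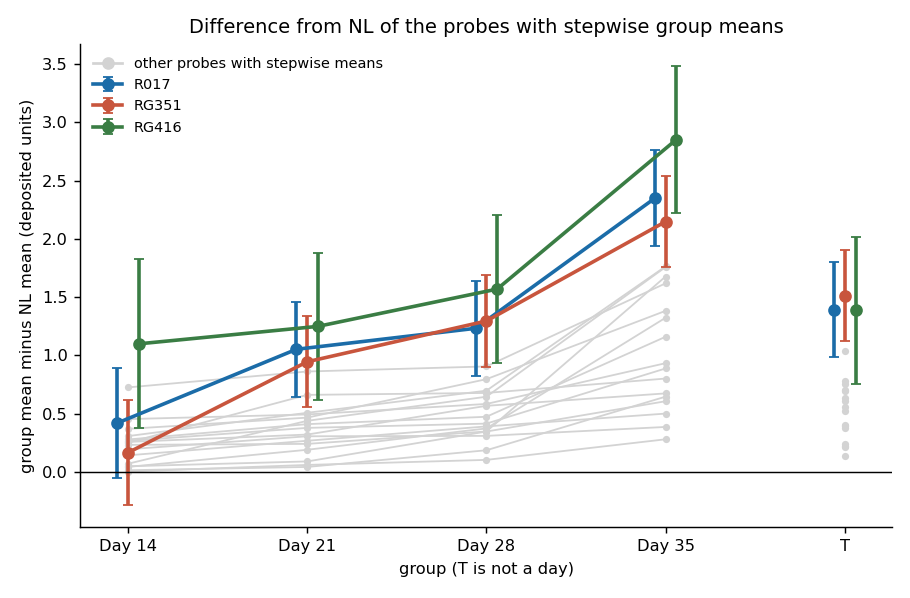
Group mean minus NL mean (y axis, deposited units) for each day and T, for the 19 probes whose means go up in this order; R017, RG351 and RG416 are coloured with limma SEs and the other 16 are grey. The 3 coloured probes end at 2.35, 2.15 and 2.85 at Day 35, above the grey probes, whose highest Day 35 difference is 1.76.

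In the limma model over 1179 probes that passed a filter on low values, 14 probes (1.19%) were higher at Day 35 than in NL at an adjusted p under 0.05, and all 3 probes were among them. The group means that chose the probes also enter this comparison, so the count is a description and no evidence for the 3. None of the 3 passed in the other comparisons with NL, where limma called 0 probes higher at Day 14 (59 probes with unadjusted p under 0.05), 1 at Day 21 (0.0848%), 0 at Day 28 (58 with unadjusted p under 0.05) and 4 in T (0.339%). Without NL array 2, the highest NL array for RG351, this probe passed in T (difference 1.77), where 11 probes were called in all. The T mean also entered the choice of the probes, so that call is likewise a description and no evidence. The Day 35 calls of the 3 depended on which arrays were used. Between 0 and 3 of the 3 were called over the alternatives. None was called without NL arrays 4 to 6, without a cluster of 6 arrays of wide spread, without Day 35 array 15 or after scaling every array to one interquartile range; the counts over the whole table were then 0, 6, 5 and 10.

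NL array 4 formed a cluster of its own, and NL arrays 5 and 6 a cluster of 2. Leaving out NL arrays 4 to 6 kept only NL arrays 2 and 3, and array 2 was the highest NL array for each probe. The omission changed RG416 most. Its Day 35 difference was 1.57 in place of 2.85, and its Day 14, Day 21, Day 28 and T differences were -0.185, -0.035, 0.285 and 0.10. RG351 then stood at -0.275 at Day 14 and 1.71 at Day 35, and R017 at 0.255 and 2.19 (2.185). Only R017 kept its order of means. With every array brought to one interquartile range, the Day 35 differences were 2.43 for R017, 2.09 for RG351 and 2.27 for RG416. The Day 21 differences were then 1.83, 1.62 and 2.27, so that Day 21 exceeded Day 28 for R017 (1.68) and RG416 (1.54), and RG351 alone kept the order. Without that cluster of 6, which leaves 1 array each at Day 14 and Day 28, RG351 alone kept it too. The cluster held arrays 3, 8, 11, 12, 14 and 19, with interquartile ranges of 1.45 to 1.75. It was formed by Spearman correlation and not by spread, and T array 20, with an interquartile range of 1.54, lay outside it. The part of array spread in the order of the means was not tested beyond these values.

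**Figure D4:**
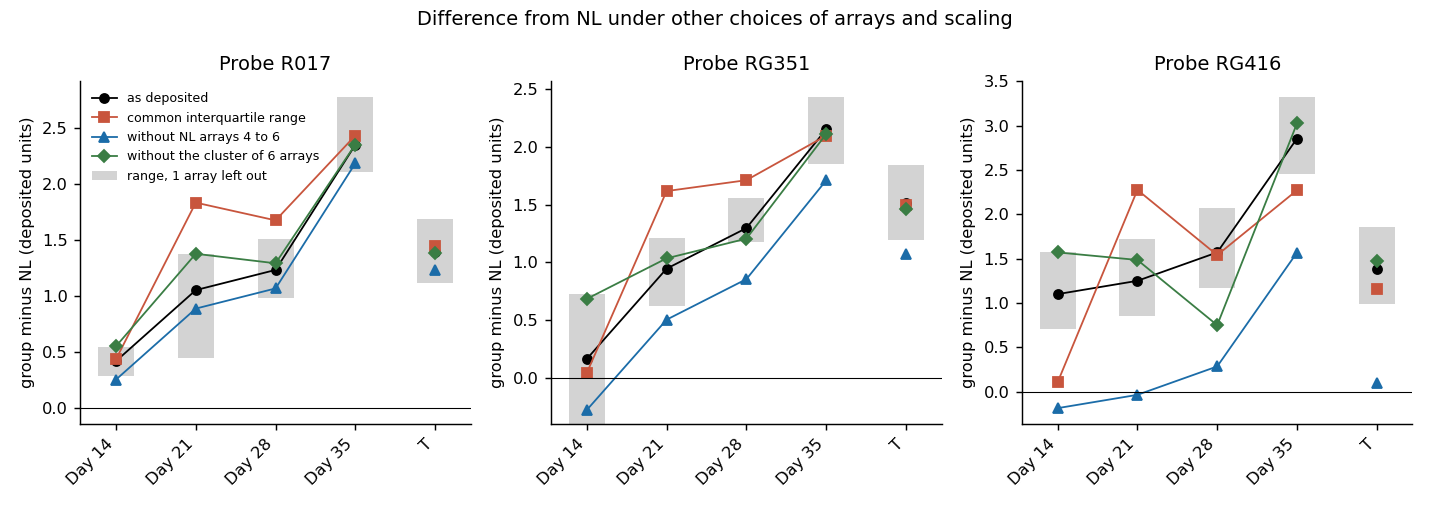
Difference of each group from NL (y axis, deposited units) for the 3 probes as deposited, with a common interquartile range, without NL arrays 4 to 6 and without the cluster of 6 arrays; grey boxes span the 19 fits that leave out 1 array. Day 35 is the highest group except for RG416 with a common interquartile range, where Day 21 and Day 35 are level at 2.27, and RG416 lies near 0 at Day 14, Day 21 and in T without NL arrays 4 to 6.

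The order also turned on single arrays. With 1 array left out at a time it was kept by R017 and by RG416 in 16 of 19 cases each, by RG351 in 18, and by all 3 together in 13. R017 lost it without Day 21 array 10 or 11 or Day 28 array 14. RG351 lost it without Day 14 array 7, where its Day 14 difference was -0.39. RG416 lost it without Day 14 array 8, Day 21 array 9 or Day 28 array 14. In these 19 cases Day 35 stayed the highest group for each probe, with differences from NL of 2.11 to 2.78 for R017, 1.85 to 2.43 for RG351 and 2.46 to 3.33 for RG416.

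The Normal Day 0 array took no part in choosing the probes. It read 0.58 for R017, above all 5 NL arrays, 1 of 2 Day 14 arrays and 2 of 3 Day 21 arrays, and below all Day 28, Day 35 and T arrays. It read 0.79 for RG351, above 4 of 5 NL arrays and 1 of 2 Day 14 arrays, and below all arrays of Day 21, Day 28, Day 35 and T. It read 3.43 for RG416, above 4 of 5 NL arrays, 1 of 2 Day 14 arrays, 1 of 3 Day 28 arrays and 1 of 3 T arrays, and below all Day 21 and Day 35 arrays. Its distance below the Day 35 mean was similar for the 3 probes: the Day 0 value minus the Day 35 mean was -1.80, -1.92 and -1.89. These values of a single array are given without a test. The share of all probes with a Day 0 value so placed was not counted, so these positions cannot be called particular to the 3.

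The arrays of one group also differed together for 2 of the probes. Deviations of the 19 arrays from their group means, which the choice of probes did not use, correlated between RG351 and RG416 with Pearson's r = 0.63 and Spearman's rho = 0.63 (permutation within groups, two-sided p = 0.00303 and 0.00476, adjusted over 6 relations 0.0130 and 0.0185). The value of r was 0.45 without the 2 arrays with the most extreme RG351 deviations, 0.77 within a cluster of 6 arrays and 0.68 within 10 arrays of the largest cluster. By r the call did not hold without NL array 2 (r = 0.43, adjusted permutation p = 0.0753), without NL array 5 (r = 0.59, adjusted permutation p = 0.0708), without NL arrays 4 to 6 (r = 0.58, adjusted permutation p = 0.170), without a cluster of 6 arrays (r = 0.71, adjusted permutation p = 0.0563) or on percentile ranks (r = 0.42, adjusted permutation p = 0.382). By rho it held without NL array 2 or 5 (adjusted permutation p = 0.0375 and 0.0475). It was lost by rho without Day 21 array 9, 10 or 11 (adjusted permutation p = 0.0763, 0.0528 and 0.0556), Day 28 array 14 (0.0704) or T array 18 (0.0686). The call by rho was also lost without NL arrays 4 to 6 (adjusted permutation p = 0.100), on percentile ranks (0.440) and after quantile normalization (0.266). Without the cluster of 6 arrays, where rho was 0.64, it was lost too. The place of each r among the r values with all 1184 other probes depended on the probe it was seen from. For RG351 with RG416 it was percentile 83.6 among those of RG416 and 89.3 among those of RG351. For R017 with RG351 it was 94.7 among those of R017 and 74.5 among those of RG351. For R017 with RG416 it was 92.1 among those of R017 and 68.2 among those of RG416.

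The 2 relations of R017 did not pass the threshold, and whether they differ from that of RG351 with RG416 was not tested. Its deviations correlated with those of RG351 with r = 0.42 and rho = 0.51 (permutation p = 0.132 and 0.0608, adjusted 0.198 and 0.0911; r 0.54 without the 2 farthest arrays, 0.53 and 0.36 within the clusters of 6 and 10). With RG416 r was 0.35 and rho 0.49 (permutation p = 0.0377 and 0.0343, adjusted 0.0755 and 0.0686; r 0.36 without the 2 farthest arrays, 0.58 and 0.43 within the clusters). The relation with RG351 turned on single arrays in both directions. Day 35 array 17 was the lowest Day 35 array for R017 and the highest for RG351, and without it r was 0.72 (adjusted permutation p = 0.00153). Without Day 21 array 9, r was 0.23 (adjusted permutation p = 0.444). With a common interquartile range r was 0.78 (adjusted permutation p = 0.0585). The relation with RG416 passed the threshold without Day 28 array 12 or 13 or Day 35 array 16 or 17, with r of 0.40, 0.38, 0.40 and 0.34 and adjusted permutation p of 0.0238, 0.0243, 0.0343 and 0.0439. Deviations lay on the same side of the group mean in 14 of 19 arrays for R017 and RG351, in 15 for R017 and RG416 and in 14 for RG351 and RG416.

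**Figure D5:**
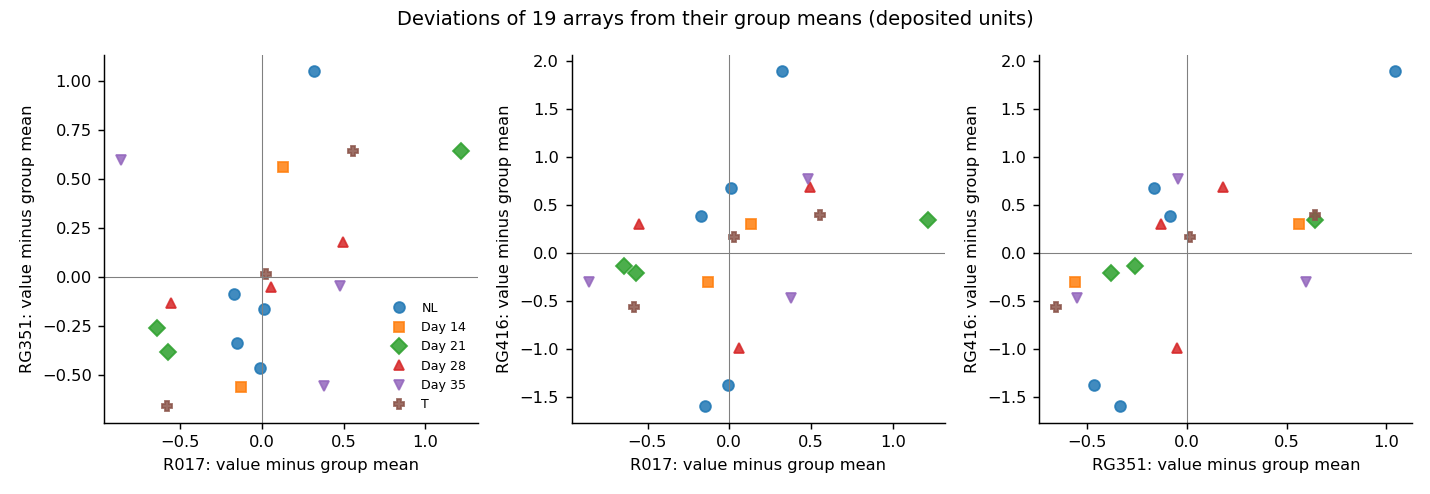
Deviation of each of 19 arrays from its group mean (deposited units) for the 3 pairs of probes, with a marker for each group. RG351 and RG416 (right, r = 0.63) include NL array 2 at the upper right, and Day 35 array 17 stands apart at the upper left for R017 and RG351 (r = 0.42).

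The interquartile range of the array moved with RG416 in the deposited values. Arrays were centred but not scaled to one spread, so a probe far above the array median can rise with that spread by its position alone. The test cannot tell this apart from any other link. Deviations of RG416 and of the interquartile range correlated with r = 0.68 and rho = 0.70 (permutation p = 0.00434 and 0.00616, adjusted 0.0130 and 0.0185; r 0.74 without the 2 farthest arrays, 0.25 and 0.80 within the clusters of 6 and 10). After quantile normalization r was 0.14 and on percentile ranks it was 0.29, neither called. With 1 array left out, the call did not hold by r without NL array 5 (r = 0.64, adjusted permutation p = 0.0642) or Day 28 array 13 (r = 0.62, adjusted permutation p = 0.0560). By rho it was lost without NL array 5 or 6 (adjusted permutation p = 0.0606 and 0.0795), Day 28 array 14 (0.0509), Day 35 array 15 (0.0597) or T array 18 (0.0686). For RG351 r was 0.28 and rho 0.30 (permutation p = 0.291 and 0.252, adjusted 0.350 and 0.303; r 0.40 without the 2 farthest arrays, 0.21 and 0.60 within the clusters). For R017 r was 0.00 (0.0041) and rho 0.08 (permutation p = 0.992 and 0.790, both unchanged by adjustment; r 0.17 without the 2 farthest arrays, -0.32 and 0.26 within the clusters). Over all probes the lower and upper quartiles of such r values were -0.71 and 0.55. The part of array spread in the relation between RG351 and RG416 was not tested separately.

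The residual spread of the 3 probes was above that of most probes: 0.60 for R017, 0.57 for RG351 and 0.96 for RG416, at percentiles 80.8, 78.7 and 94.5 of the 1179 probes tested, whose median was 0.39. The larger SEs of RG416 follow from it.

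The probes most like each member were found by Pearson's r over the 20 arrays, as a description. For R017 they were R272 (r = 0.91) and RG534 (r = 0.88). For RG351 they were R283 (0.86) and R439 (0.86), and for RG416 R365 (0.91) and RG373 (0.89). RG534, R283, R365 and RG373 were themselves among the 19 probes with means in this order. R272 and R439 were not: R272 had a mean of 1.94 at Day 21 and 1.60 at Day 28, and R439 had 3.99 at Day 28 and 3.96 at Day 35. Among the 1184 other probes, RG351 ranked 7 for likeness to R017 (r = 0.83) and RG416 ranked 12 (r = 0.74), while R017 ranked 61 for likeness to RG416. An r over the 20 arrays includes the differences between group means by which the members were chosen. Likeness between members, and to others of the 19 probes, was therefore favoured by the choice and is no evidence. After scaling to a common interquartile range, 8 of the 10 most like probes stayed for R017, 5 for RG351 and 6 for RG416. With Spearman's rho in place of Pearson's r, 10, 8 and 2 stayed.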

How the data were processed

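The authors' deposited values were used as a score per probe and array; the array platform, background correction, normalization and base of the logarithm were not stated in the labels or the table. They run from -1.95 to 9.71 with array medians of -0.01 to 0. Groups were taken from array titles. The 3 probes, the tests and the alternatives were chosen with earlier results of these data known. Probes above the 25th percentile of the values of 19 arrays in at least 3 of them entered a linear model in limma 3.58.1 under R 4.3.3 (eBayes, 6 groups, 13 residual degrees of freedom, no covariate, Benjamini-Hochberg over all probes tested, threshold 0.05). The Normal Day 0 array was left out of the fit. The fit was planned for log-like values and needed no floor. Correlations used 100000 permutations within groups (numpy 2.4.6), and clusters came from average linkage on Spearman correlation, 4 clusters (scipy 1.17.1). The fit and the permutations were tested on simulated data. Named probes were the 3 members, the 2 most like each by Pearson's r, and the first and last of the other stepwise probes. Precision is limited by the number of arrays. Plots used Python 3.11.15 and matplotlib 3.10.9.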

Additional observations from a re-analysis of the deposited data

Results flagged for a closer look

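The Normal Day 0 array, which was left out of the fitted groups, read 0.58 for R017, where the highest NL array read 0.35.

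RG351 had an outlying array in NL: array 2 read 1.61 and the next highest 0.48, a gap of 0.748 of the group's range against a critical value of 0.710. NL is the one group large enough for this check, which was also run on R017, RG416 and array spread and found no other. Chance gives about 1 in 20 for each of these checks, so a flag somewhere among them is likelier than that. Without NL array 2 the Day 35 difference of RG351 was 2.41, beside 2.15 with it.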

How the results depend on the processing

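The Day 35 difference from NL kept its sign for all 3 probes under every alternative run, and moved by more than the residual SD only for RG416 without NL arrays 4 to 6, to 1.57. Under that choice the Day 14, Day 21, Day 28 and T differences of RG416 were -0.185, -0.035, 0.285 and 0.102. With a common interquartile range the Day 21 difference was 1.83 for R017, 1.62 for RG351 and 2.27 for RG416, and the Day 14 difference of RG416 was 0.107. With 1 array left out at a time, the Day 21 difference of R017 ran from 0.445 (without Day 21 array 9) to 1.38 (1.375).

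Of the 12 upward steps, 10 to 12 stayed with 1 array left out. Without the cluster of 6 arrays fewer stayed: 3 for R017, 4 for RG351 and 2 for RG416. The means of RG416 were then 3.87 at Day 14, 3.785 at Day 21 and 3.05 at Day 28. The number of probes with means in this order was 34 on percentile ranks, 6 without the cluster of 6 arrays and 9 to 32 with 1 array left out (9 without Day 14 array 8, 11 without Day 28 array 14, 32 without NL array 2).

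Calls at Day 35 (14, all higher) were 33 after quantile normalization (24 higher, 9 lower), 0 without NL arrays 4 to 6, 6 without the cluster of 6 arrays and 5 to 43 with 1 array left out (5 and 9 without Day 35 arrays 15 and 16, 43, of which 41 higher, without NL array 2). Calls at Day 14 (0) were 14 without the cluster of 6 arrays and 0 to 14 with 1 array left out (14 without Day 14 array 8). The single Day 21 call gave way to 0 with a common interquartile range, with Normal Day 0 added to NL, without NL arrays 4 to 6, without the cluster of 6 arrays and with trended and robust variance, and ran from 0 to 2 with 1 array left out. At Day 28 (0) the range was 0 to 1. Calls in T (4 higher, 1 lower) were 0 with a common interquartile range, 0 without NL arrays 4 to 6, 0 without the cluster of 6 arrays and 0 to 11 with 1 array left out (0 without T array 19 or T array 20, 3 without T array 18, 11 without NL array 2). The causes were not tested.

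Correlations of deviations (permutation tests) depended on the choices too. For RG351 with RG416, called as deposited, r was 0.45 after quantile normalization, 0.42 on percentile ranks, 0.58 without NL arrays 4 to 6 and 0.71 without the cluster of 6 arrays, none of them called, and 0.43 to 0.72 with 1 array left out, with the call by r lost without NL array 2 or 5. For R017 with RG416, r was 0.74 and called with a common interquartile range, and ran from 0.30 to 0.40 with 1 array left out. For R017 with RG351 that range was 0.23 to 0.72, and r was 0.78 with a common interquartile range and 0.62 after quantile normalization, neither called. For RG416 with array spread, r was 0.14 after quantile normalization, 0.29 on percentile ranks and 0.49 without NL arrays 4 to 6, none called, and 0.62 to 0.81 with 1 array left out, with the call by r lost without NL array 5 or Day 28 array 13. It was -0.77 with a common interquartile range, where each value is divided by that spread. The uncalled r of RG351 with array spread was -0.44, -0.63 and -0.25 after quantile normalization, with a common interquartile range and on percentile ranks. That of R017 was -0.35, -0.49 and -0.20 there, -0.072 without NL arrays 4 to 6 and -0.15 to 0.25 with 1 array left out.

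No paired analysis was possible because the array numbers are unique and shared by no groups. Group medians in place of means kept the order for all 3 probes, as did median centring and adding the Normal Day 0 array to NL, while after quantile normalization R017 lost it (Day 21 1.36, Day 28 1.32). The number of arrays limits the precision, and how far each probe stood above background is not given.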
